A study of Mus musculus with 6 samples.

Results

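Corticosterone, the stress hormone of the mouse, acts in the brain through a pair of nuclear receptors, and 10 genes of this system were followed here: the receptors Nr3c1 and Nr3c2, the hormone-activating enzyme Hsd11b1, the stress peptide receptor Crhr1, the receptor cochaperone Fkbp5, and the hormone-induced genes Sgk1, Tsc22d3, Cdkn1a, Errfi1 and Zbtb16. They were picked by name, and every probe set annotated to exactly 1 gene symbol, that symbol being one of the 10, was taken. All 10 genes were found, with 25 probe sets among them, out of 18193 named genes on the array. For each gene the brightest probe set on average gave the main value and the other 15 probe sets served as a check. All 10 main probe sets lay above the array median on all 6 arrays.

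The glucocorticoid receptor, encoded by Nr3c1, and the mineralocorticoid receptor, encoded by Nr3c2, are transcription factors that wait in the cytoplasm with heat shock proteins, bind hormone, and move to the nucleus. The hippocampus is known for holding both, and the mineralocorticoid receptor, with its higher affinity, is occupied at resting hormone levels while the glucocorticoid receptor fills during stress. Hormone-bound receptor raises transcription of genes such as Fkbp5, Sgk1 and Tsc22d3, and the Fkbp5 protein in turn lowers the receptor's affinity for hormone.

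The samples came from the hippocampus of male DBA/2 mice, an inbred strain, kept singly and given venlafaxine, an inhibitor of serotonin and noradrenaline uptake used against depression, in the drinking water for 30 days. Control animals took 0, low dose animals 30 and high dose animals 100 mg per kg and day, 10 animals in each dose group, all on standard chow. From each dose group came 1 left-sided and 1 right-sided pool, each put on 1 Affymetrix mouse array, so n = 2 arrays per dose and every array averages over animals. The labels do not say whether left and right pools came from separate animals, so the p-values cover the spread among pools alone, and that spread may be technical.

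Control replicate 1, high dose replicate 1 and both low dose arrays were hybridized on a first date, and high dose replicate 2 and control replicate 2 on a later date, with RNA integrity numbers (RIN, a score of RNA intactness) of 8.2 and 7.9 for the later arrays and 8.5 to 9.1 for the earlier ones. High dose replicate 1, low dose replicate 2 and control replicate 2 were left pools, and the other arrays right pools. The high dose and control arrays of each date were thus of opposite sides. A high dose minus control difference within a date therefore crosses sides, and one within a side crosses dates. Over all probe sets the later high dose and control arrays correlated at 0.9972 with each other, against 0.9952 for the pair of control arrays. Arrays thus grouped by date more than by dose. Markers of dentate granule cells (6 of 6), CA1 pyramidal cells (4 of 4) and CA2 and CA3 pyramidal cells (6 of 6) were all above the filter on dim genes, as were 5 of 5 choroid plexus, 5 of 7 striatal and 3 of 5 hypothalamic markers. The mean log2 level of the 5 striatal markers was 9.66 to 9.87 on the high dose, 9.89 to 10.11 on the low dose and 9.98 to 10.2 on the control arrays. For the 3 hypothalamic markers it was 8.24 to 8.25, 8.59 to 8.88 and 8.17 to 8.30, in the same order. For the 5 choroid plexus markers it was 10.05 to 10.52, 10.23 to 10.44 and 9.99 to 10.19. Avp, a hypothalamic marker, had a log2 fold change of 0.96 at the low dose (SE 0.17, limma adjusted p = 0.0191). Its log2 levels were 9.32 and 8.40 on the low dose arrays and 7.80 and 8.00 on the control arrays. Low dose replicate 1 thus stood well above replicate 2. Oxt and Pmch had log2 fold changes of 0.17 and 0.38 at the low dose. The part of neighbouring tissue in any difference below was not tested. In pooled tissue, fewer cells of a type and less RNA per cell cannot be told apart.

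**Figure D1:**
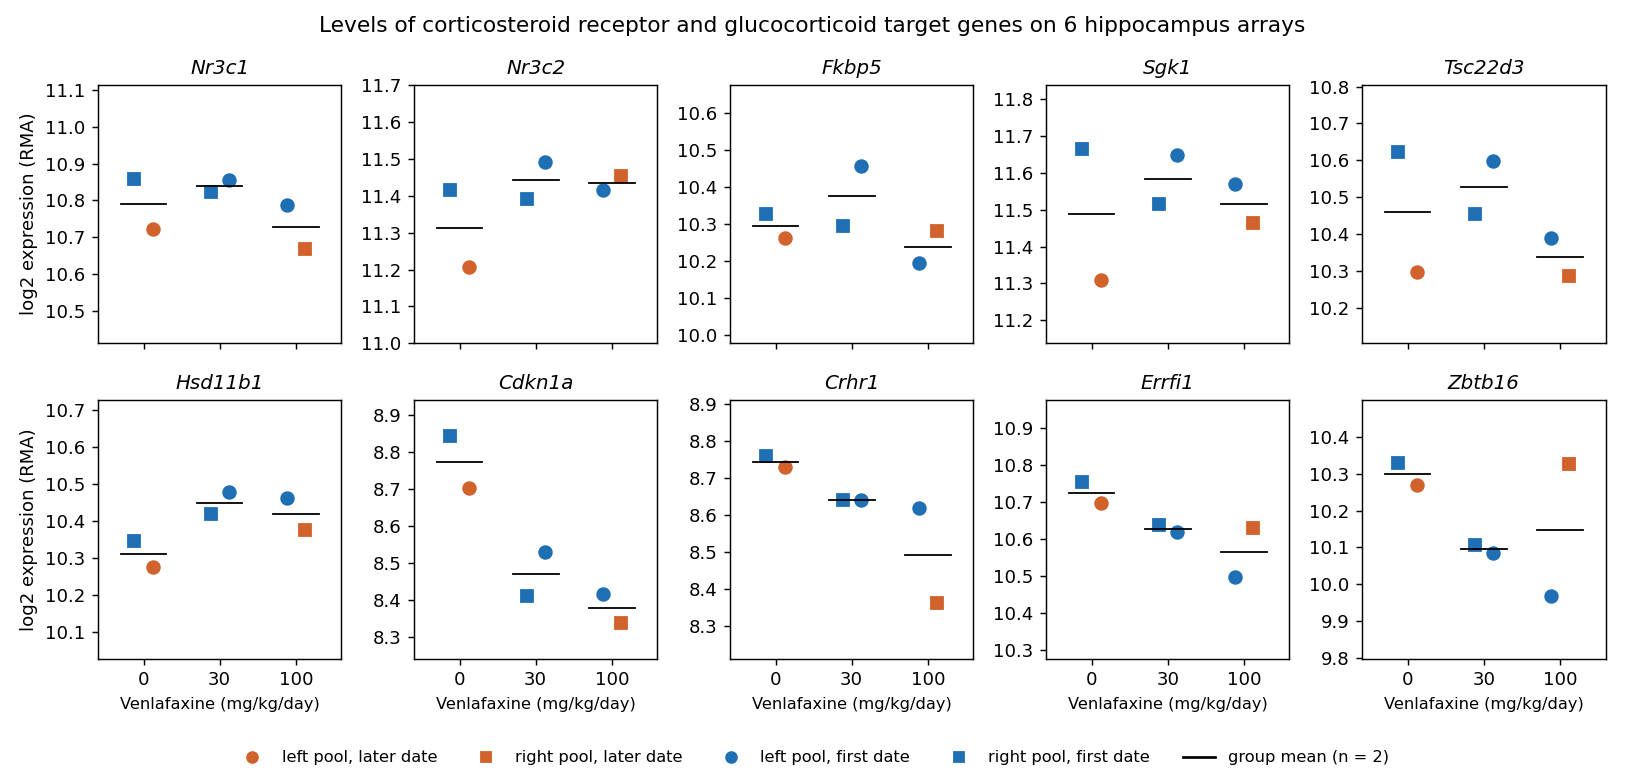
Log2 expression (vertical axis, each panel spanning the same width of log2 units) of the 10 genes at 0, 30 and 100 mg per kg per day of venlafaxine (horizontal axis), with 1 point per array, circles for left and squares for right pools, colour for hybridization date, and a bar for the mean of 2 arrays. In Cdkn1a, Crhr1 and Errfi1 all 4 treated arrays lie below both control arrays, and in Hsd11b1 all 4 lie above them.

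None of the 10 genes passed the threshold in either dose comparison. The 95% intervals of the receptor genes Nr3c1 and Nr3c2 spanned both directions at either dose, and the probe sets of Nr3c1 disagreed. Differences were tested with limma on 11739 genes (adjusted p under 0.05), where 0.00852% of genes passed for high dose against control and 0.0426% for low dose against control. At an unadjusted p under 0.05 the counts were 2 of 10 members at the high dose (Cdkn1a and Crhr1; 2.76% of all tested genes) and 1 of 10 at the low dose (Cdkn1a; 3.32%). The median log2 fold change of the 10 genes was -0.09 at the high dose and 0.06 at the low dose, beside -0.03 and 0.04 over all tested genes. Both comparisons share the control arrays, so their values are given side by side and their likeness is not a result.

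The glucocorticoid receptor gene Nr3c1 had log2 levels of 10.86 and 10.72 on the control arrays, 10.82 and 10.86 on the low dose arrays, and 10.79 and 10.67 on the high dose arrays. The high dose arrays overlapped the controls, as did the low dose arrays, and the lowest array in the control and in the high dose group was the one hybridized later. The log2 fold change was -0.06 (SE 0.10, limma adjusted p = 1.00) for high dose against control, with a 95% interval of -0.27 to 0.15, which spans a ratio of 0.827 to 1.11. For low dose against control it was 0.05 (SE 0.10, limma adjusted p = 1.00; interval -0.16 to 0.26).

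The probe sets of Nr3c1 did not give 1 answer. The second brightest read 10.61 and 10.62 on the control arrays, 10.32 and 10.47 on the low dose arrays, and 10.30 and 10.50 on the high dose arrays. There all 4 treated arrays lay below both controls, by -0.22 at the low and -0.21 at the high dose on the log2 scale. This probe set was singled out after its values were seen and has no test. The third ran from 9.33 to 10.01, with its lowest value on high dose replicate 2 and its highest on high dose replicate 1. The other 3 probe sets of the gene lay below the median of every array.

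The mineralocorticoid receptor gene Nr3c2, measured by 1 probe set, had log2 levels of 11.41 and 11.21 on the control arrays, 11.39 and 11.49 on the low dose arrays, and 11.41 and 11.45 on the high dose arrays. Control replicate 2 stood below the other 5 arrays, which lay close together. The log2 fold changes of 0.12 at the high dose (SE 0.105, limma adjusted p = 1.00; 95% interval -0.09 to 0.34) and 0.13 at the low dose (SE 0.105, limma adjusted p = 1.00) rest on that array: without it they were 0.02 and 0.03.

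Hsd11b1 encodes the enzyme that regenerates active corticosterone from its inert 11-keto form inside cells. Its log2 levels were 10.34 and 10.27 on the control arrays, 10.42 and 10.48 on the low dose arrays, and 10.46 and 10.38 on the high dose arrays. All 4 treated arrays lay above both controls, by 0.11 at the high dose (SE 0.10, limma adjusted p = 1.00) and 0.14 at the low dose (SE 0.10, limma adjusted p = 1.00). Among all tested genes 3.54% had 4 treated arrays above both controls. Within the first date the high dose array exceeded the control by 0.12, and within the later date by 0.10. The 95% interval of the high dose difference, -0.10 to 0.32, included 0.

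Crhr1 is the receptor for corticotropin-releasing hormone, the peptide that starts the stress axis in the hypothalamus and also acts within the hippocampus. It had log2 levels of 8.76 and 8.73 on the control arrays, 8.64 and 8.64 on the low dose arrays, and 8.62 and 8.36 on the high dose arrays. All treated arrays were below the controls, and high dose replicate 2 was the lowest of all. The log2 fold change was -0.25 at the high dose (SE 0.11, limma unadjusted p = 0.0249, adjusted p = 1.00) and -0.10 at the low dose (SE 0.11, adjusted p = 1.00). Without high dose replicate 2 the high dose value was -0.13. The second probe set, dimmer than the median of every array, gave -0.06 at the high dose and -0.14 at the low dose.

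Cdkn1a showed the widest range of the 10 genes over the 6 arrays, 0.50 on the log2 scale. It encodes p21, an inhibitor of cyclin-dependent kinases that glucocorticoids, p53 and other signals induce. Its log2 levels were 8.84 and 8.70 on the control arrays, 8.41 and 8.53 on the low dose arrays, and 8.42 and 8.34 on the high dose arrays. Every treated array lay below every control array, and the gap between the lowest control and the highest treated array (low dose replicate 2) was wider than the gap within any dose group. For high dose against control the log2 fold change was -0.40 (SE 0.10, limma unadjusted p = 0.000823, adjusted p = 0.805), or 1.32-fold, with a 95% interval of -0.61 to -0.18. For low dose against control it was -0.30 (SE 0.10, limma unadjusted p = 0.00733, adjusted p = 1.00), and for both doses together against control -0.35 (SE 0.09, limma adjusted p = 0.822).

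The Cdkn1a call differed between fits. With the hybridization date as a block, which pairs the control and high dose arrays, the high dose fold change stayed at -0.40 and the limma adjusted p was 0.0118; 44 genes passed in that fit, in which all genes share 1 estimate of spread. Without control replicate 2, which leaves 1 control array, the log2 fold change was -0.47, beside a median of -0.09 over all tested genes. With a trended robust prior the limma adjusted p was 0.0245 and 14 genes passed, and there too genes shared their spread, by level. With the replicate number as a block the limma adjusted p was 0.211, again with 1 shared estimate of spread, so the call was not made there. Over 13 alternatives the adjusted p ran from 0.0118 to 1.00 and the log2 fold change from -0.47 to -0.26. For both doses together the limma adjusted p with the date as a block was 0.00306, where 51 genes passed, within a range of 0.00306 to 1.00. The first-date arrays differed by -0.43 between high dose and control, and the later arrays by -0.37. Taken by side, the difference was -0.29 between the left pools and -0.50 between the right pools. These pairs cross dates, while the within-date pairs cross sides, and both splits use the same arrays. The second probe set read 7.91 and 8.07 on the control arrays, 7.79 and 7.71 on the low dose arrays and 7.85 and 7.86 on the high dose arrays, again with all treated arrays below both controls. Its differences were smaller, -0.13 at the high and -0.24 at the low dose. Cdkn1a was among the genes known from earlier results of these data when the 10 were picked, so its place among them adds no support.

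**Figure D2:**
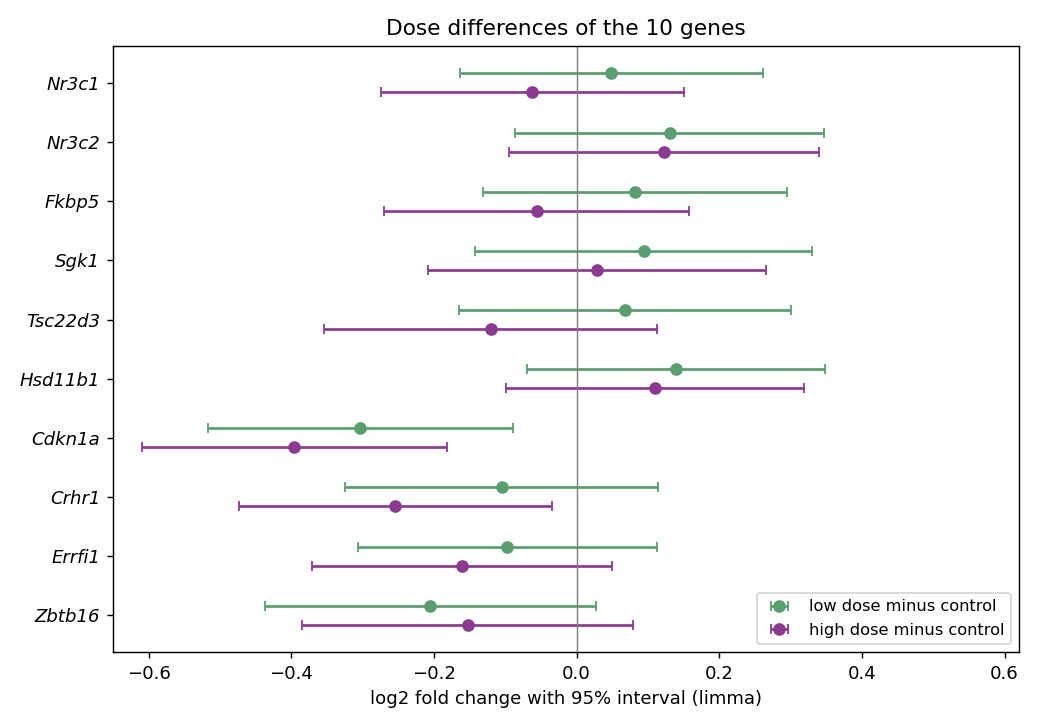
Log2 fold change (horizontal axis) of each gene for low dose minus control and high dose minus control, with points for the limma estimate and bars for its 95% interval. The high dose intervals of Cdkn1a and Crhr1 and the low dose interval of Cdkn1a leave out 0, before any adjustment over the 11739 genes.

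Fkbp5, the cochaperone often read as a gauge of glucocorticoid receptor activity, had log2 levels of 10.33 and 10.26 on the control arrays, 10.30 and 10.46 on the low dose arrays, and 10.20 and 10.28 on the high dose arrays. Both treated groups overlapped the controls, while the high dose arrays lay below both low dose arrays. The log2 fold change was -0.06 at the high dose (SE 0.10, limma adjusted p = 1.00; 95% interval -0.27 to 0.16) and 0.08 at the low dose (SE 0.10, adjusted p = 1.00). Its next brightest probe set differed by 0.11 at the high and 0.15 at the low dose, with all 4 treated arrays above both controls, so the direction at the high dose was not settled between probe sets.

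Errfi1, which encodes an inhibitor of the epidermal growth factor receptor, had log2 levels of 10.75 and 10.70 on the control arrays, 10.64 and 10.62 on the low dose arrays, and 10.50 and 10.63 on the high dose arrays. The treated arrays lay below the controls on this probe set, with log2 fold changes of -0.16 at the high dose (SE 0.10, limma adjusted p = 1.00) and -0.10 at the low dose (SE 0.10, adjusted p = 1.00). A second probe set gave 0.01 and 0.07, with the high dose arrays at 8.57 and 8.38 and the controls at 8.57 and 8.37.

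Zbtb16, a zinc finger transcriptional repressor also known as PLZF, had log2 levels of 10.33 and 10.27 on the control arrays, 10.11 and 10.08 on the low dose arrays, and 9.97 and 10.33 on the high dose arrays. Both low dose arrays lay below both controls, while of the high dose arrays replicate 1 was the lowest of all 6 and replicate 2 lay level with the controls. The log2 fold change was -0.20 at the low dose (SE 0.11, limma adjusted p = 1.00) and -0.15 at the high dose (SE 0.11, adjusted p = 1.00). High dose minus control was -0.36 within the first date and 0.06 within the later date. The second brightest probe set gave -0.19 at the high and 0.07 at the low dose, and the mean of the gene's 3 probe sets gave -0.07 at the low dose, so the low dose direction was not shared by all probe sets.

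Together, Cdkn1a, Crhr1 and Errfi1 had all 4 treated arrays below both controls, 3 of 10 genes, where 4.38% of all tested genes did so; with Hsd11b1 above, 4 of 10 did not overlap in either direction, where 7.92% of all tested genes did not. For both doses together 1 of 10, Cdkn1a, had an unadjusted p under 0.05, beside 2.36% of all tested genes. For high dose against control alone the arrays did not overlap in 4 of 10 genes, 3 lower and 1 higher, beside 26.7% of all tested genes, 18.7% lower and 8.01% higher. For low dose against control they did not overlap in 5 of 10, 4 lower and 1 higher, beside 21.2%, 7.77% lower and 13.4% higher. Since the genes were picked with earlier results known, these shares are a description.

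**Figure D3:**
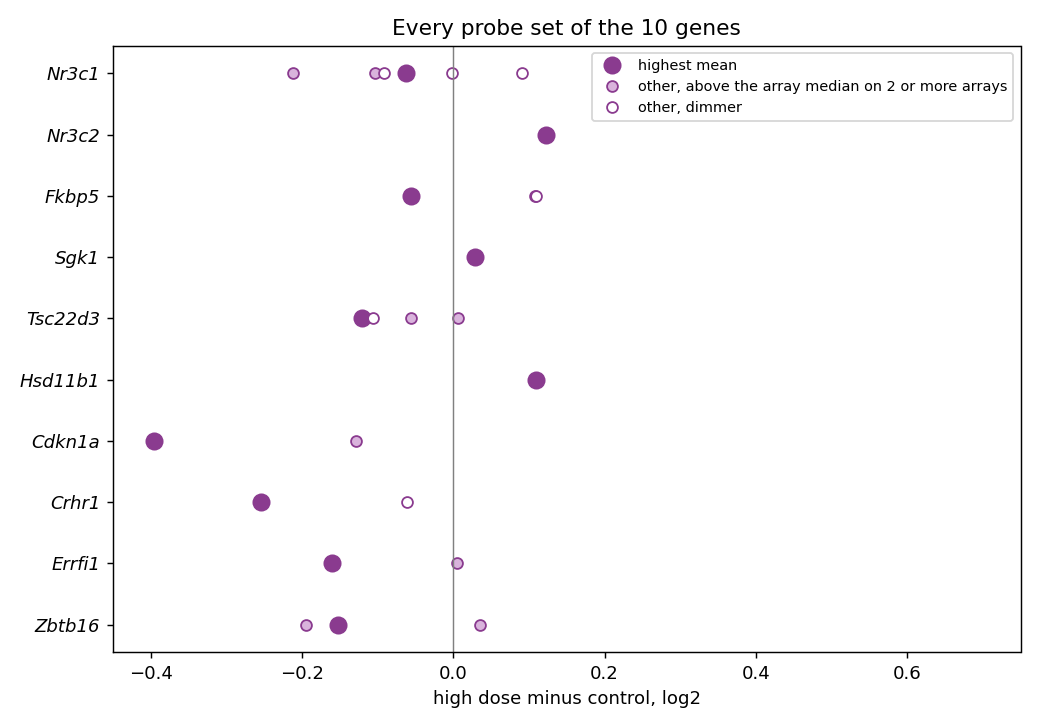
Difference in log2 expression between high dose and control (horizontal axis, mean of 2 arrays minus mean of 2 arrays) for all 25 probe sets, with large points for the brightest probe set of a gene, small filled points for others above the array median on 2 or more arrays, and open points for dimmer ones. Of the 15 other probe sets 9 share the sign of the brightest, and of the 9 brighter ones among them 5 do.

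Sgk1 and Tsc22d3, classical direct targets of the glucocorticoid receptor, had the lowest unadjusted p of the 10 genes by hybridization date, and neither had one under 0.05 by dose. Sgk1 encodes a kinase that regulates ion channels and transporters, and Tsc22d3 encodes GILZ, a leucine zipper protein with anti-inflammatory action. Sgk1 had log2 levels of 11.67 and 11.31 on the control arrays, 11.51 and 11.65 on the low dose arrays, and 11.57 and 11.46 on the high dose arrays. Tsc22d3 had 10.62 and 10.30 on the control arrays, 10.46 and 10.60 on the low dose arrays, and 10.39 and 10.29 on the high dose arrays. For both genes the highest array of the 6 was control replicate 1, and both later arrays lay below all 4 earlier ones. Across the 6 arrays their levels had a Pearson correlation of 0.869, a description over arrays that share dates.

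Promoters of both genes were searched for the letters known to make up the element that the glucocorticoid receptor binds. These genes were taken because both were lowest on the later arrays, as was Nr3c1, for which no window was listed. For each gene the window with the most matches is printed, so that it holds a match follows from that choice. The letters searched were AGAACA on either strand (TGTTCT when read on the other) and the 15-base pair of them, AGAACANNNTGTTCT, whose ends overlap the shorter matches. The sequences cover the 250 bases before an annotated transcript start, 5′ to 3′ on the gene's strand, from RefSeq on GRCm38.p6, with matches in capitals. The Sgk1 window is chr10:21993640-21993889 on the plus strand and the Tsc22d3 window is chrX:140600523-140600772 on the minus strand.
Sgk1: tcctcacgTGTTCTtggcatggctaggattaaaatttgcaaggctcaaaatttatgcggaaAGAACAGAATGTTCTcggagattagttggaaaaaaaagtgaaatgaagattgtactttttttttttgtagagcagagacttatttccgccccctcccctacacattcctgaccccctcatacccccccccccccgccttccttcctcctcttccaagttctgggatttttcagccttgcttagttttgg
Tsc22d3: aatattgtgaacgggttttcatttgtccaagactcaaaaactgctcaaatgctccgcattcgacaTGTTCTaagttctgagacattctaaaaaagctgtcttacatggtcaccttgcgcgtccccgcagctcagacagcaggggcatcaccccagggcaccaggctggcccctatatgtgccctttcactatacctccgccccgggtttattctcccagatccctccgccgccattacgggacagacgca

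In the Sgk1 window the paired element begins at position -189 and ends at position -175 from the start, and a further single element lies at -242 to -237. The Tsc22d3 window, 1 of 3 for the gene, holds 1 single element, at -185 to -180. The other windows of Tsc22d3 held no match. Of 32851 promoter windows of 300 bases in the table, 19.0% held the single element and 3 windows, or 0.00913%, held the paired one; this Sgk1 window, 1 of 6 for the gene, is among those 3. Windows were listed for 8 of the 10 genes, 17 in all, and 4 of the 17, all of Sgk1 or Tsc22d3, held a match. A match is a run of letters and no evidence of binding in these samples.

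For the dose comparisons Sgk1 had a log2 fold change of 0.03 at the high dose (SE 0.11, limma adjusted p = 1.00; 95% interval -0.21 to 0.27) and 0.09 at the low dose (SE 0.11, adjusted p = 1.00). Tsc22d3 had -0.12 at the high dose (SE 0.11, limma adjusted p = 1.00) and 0.07 at the low dose (SE 0.11, adjusted p = 1.00). The within-date differences between high dose and control were of opposite sign for Sgk1, at -0.10 for the first-date arrays and 0.15 for the later arrays. For Tsc22d3 they were -0.23 and -0.01 on its brightest probe set. The next brightest gave 0.04 and -0.15 in the same order, and the next after it 0.07 and -0.06. Both lay above the median on all 6 arrays. Their high dose minus control differences were -0.06 and 0.01, in that order. The dimmest, below the median of every array, gave -0.08 and -0.13 within the dates. The direction within the first date was thus not shared by all probe sets of the gene.

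The comparison of the later with the first date, with dose group as a term, asked how far the same genes differed between the dates. The later arrays also had the lower RIN and held other pools, so date, RNA quality and pool cannot be told apart. None of the 10 passed the threshold, where 6.97% of all tested genes did, and 2 of 10, Sgk1 and Tsc22d3, had an unadjusted p under 0.05, beside 19.5% of all tested genes. Sgk1 had a log2 difference of -0.23 (SE 0.09, limma adjusted p = 0.114) and Tsc22d3 one of -0.21 (SE 0.09, limma adjusted p = 0.152). The Sgk1 difference was -0.11 between the high dose arrays and -0.35 between the control arrays; for Tsc22d3 these were -0.10 and -0.32. In Nr3c1 the corresponding differences were -0.12 and -0.14, and its later arrays also lay below all earlier ones. Altogether 3 of 10 genes had both later arrays below the 4 earlier arrays, and none above them, where 30.1% of all tested genes lay below, 5.18% above and 35.3% either way.

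The other members ranged from -0.14 for Crhr1 to 0.15 for Zbtb16 in this comparison, and the median of the 10 was -0.10, beside -0.06 over all tested genes. For Zbtb16 later minus first date was 0.36 between the high dose arrays and -0.06 between the control arrays. The mean log2 level of 6 measured oligodendrocyte markers (of 7 listed) also went with the date, at 11.84 to 11.95 on the later arrays and 12.12 to 12.37 on the earlier ones. Mbp among them went the other way (0.10). Means of CA1 pyramidal (10.34 to 10.43 against 10.51 to 10.64), astrocyte (11.603 to 11.670 against 11.672 to 11.810) and microglia markers (9.952 against 9.956 to 10.087) were also lower on the later arrays. Means of the other marker lists overlapped between dates. The oligodendrocyte mean was likewise higher on the low dose arrays, at 12.25 to 12.37, than on the control arrays, at 11.95 to 12.13. The part of any cell type and of the lower RIN in the Sgk1 and Tsc22d3 values was not tested.

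**Figure D4:**
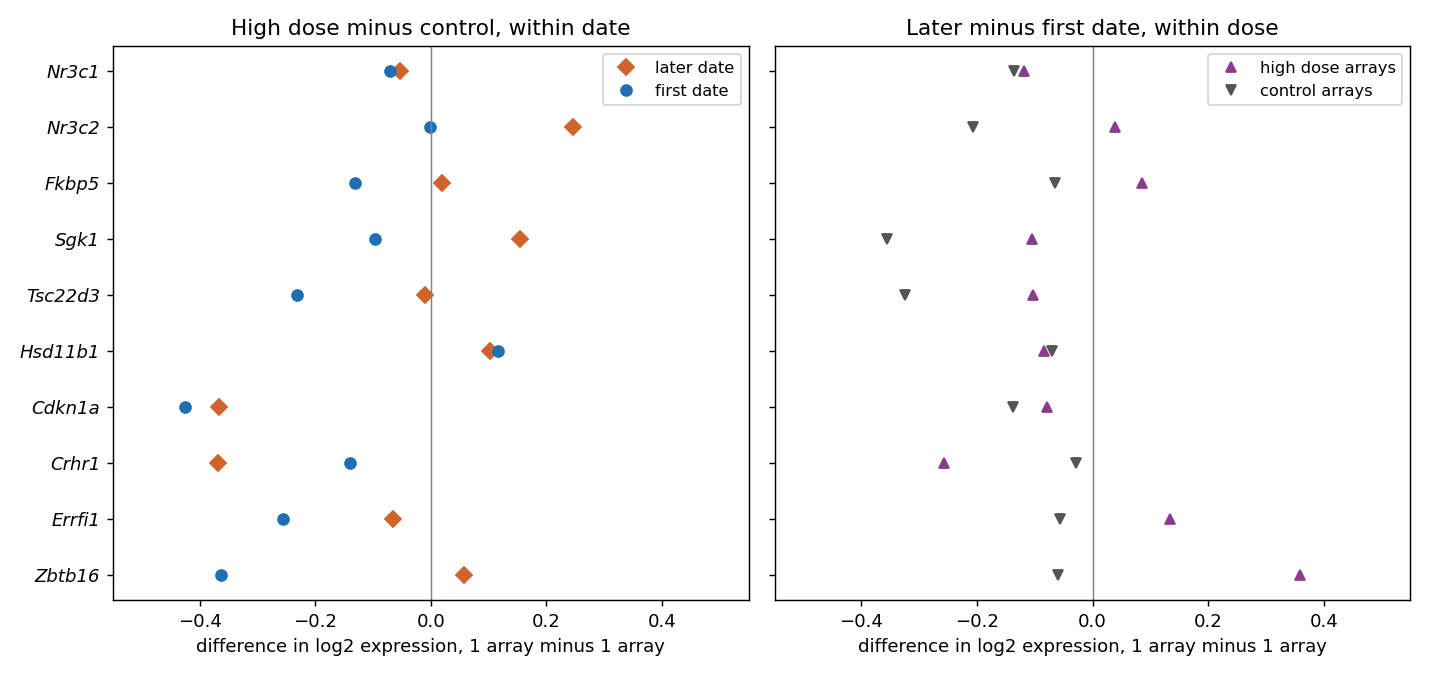
Differences in log2 expression between single arrays (horizontal axes) for the 10 genes. On the left, high dose minus control within the later and the first date; on the right, later minus first date within the high dose and within the control arrays. Cdkn1a lies at -0.37 within the later date and -0.43 within the first. On the brightest probe set of each gene, Nr3c2, Fkbp5, Sgk1 and Zbtb16 change sign between dates and the other 6 genes do not. The arrays compared within a date are of opposite sides.

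Between the doses no member passed (0 of 10, and 0% of all tested genes by limma; 728 genes, 6.2%, and 0 members had an unadjusted p under 0.05). High dose minus low dose ran from -0.19 for Tsc22d3 to 0.05 for Zbtb16, with 9 of 10 genes lower at the high dose, where 77.2% of all tested genes were, and a median of -0.08, beside -0.07 over all tested genes. With the date as a block 7 of 10 were lower, with quantile normalization 5 of 10, 6 of 10 without low dose replicate 2 and 7 of 10 without high dose replicate 1. The high dose arrays lay below both low dose arrays in 4 of 10 genes, Nr3c1, Fkbp5, Tsc22d3 and Crhr1, and above them in 0, where 37.3% of all tested genes lay below, 3.97% above and 41.3% either way. Left minus right pools, with dose group as a term, ran from -0.15 for Zbtb16 to 0.08 for Crhr1, with 0 of 10 members past the limma threshold or under an unadjusted p of 0.05, beside 0% and 0.341% of all tested genes.

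Of the stress hormone axis and steroid handling list, 4 of 12 genes were bright enough to be tested and none passed at either dose or by date. Crh, the gene of the peptide that Crhr1 binds, had log2 levels of 8.52 and 8.27 on the control arrays, 8.19 and 8.33 on the low dose arrays, and 8.23 and 8.11 on the high dose arrays. Its log2 fold change was -0.22 at the high dose (SE 0.11, limma adjusted p = 1.00) and -0.13 at the low dose. Crhbp, which encodes the protein that sequesters this peptide, had -0.06 and -0.07, and Pomc, the precursor of corticotropin, -0.02 and 0.03. Abcb1a, whose product pumps steroids and many drugs out of the brain, had 0.04 at both doses. Hsd11b2, which inactivates corticosterone, and the second peptide receptor gene Crhr2 were below the filter, at log2 levels of 7.18 to 7.53 for Hsd11b2 and 7.16 to 7.39 for Crhr2; both were picked for their role after their values were seen.

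Receptor chaperones and coregulators had mostly lower means at the high dose, with 17 of 18 tested genes (of 23 listed) below control means, where 64.1% of all tested genes were, and a median of -0.10, beside -0.03 over all tested genes. None of the 18 passed with limma at either dose, and 3 at the high and 1 at the low dose had an unadjusted p under 0.05, beside 2.76% and 3.32% of all tested genes. In 9 of 18 genes the high dose and control arrays did not overlap, all lower at the high dose. Among all tested genes 18.7% were lower without overlap, and 26.7% did not overlap either way. The list was chosen with earlier results of these data known, so these shares are a description. Dnajb1, an HSP40 family cochaperone, had log2 levels of 11.48 and 11.56 on the control arrays, 11.35 and 11.54 on the low dose arrays, and 11.10 and 11.22 on the high dose arrays, a log2 fold change of -0.36 at the high dose (SE 0.105, limma adjusted p = 0.933). Stip1, which bridges the heat shock proteins that fold the receptor, had -0.22 at the high dose and 0.20 at the low dose. Hspa1b and Hspa1a, near-identical genes whose probes may not separate them, had -0.30 and -0.22 at the high dose, and 0.28 and 0.18 at the low dose. Fkbp4, the cochaperone that competes with Fkbp5 for the receptor, had -0.11 and 0.19.

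Of 26 further genes known to be induced by glucocorticoids, 21 were tested and 0 passed with limma at either dose, with 2 at the high and 3 at the low dose under an unadjusted p of 0.05, beside 2.76% and 3.32% of all tested genes. At the high dose 14 of 21 had lower and 7 higher means, where 64.1% of all tested genes had lower ones, with a median of -0.04 beside -0.03 over all tested genes. At the low dose 11 had lower and 10 higher means, where 32.4% of all tested genes had lower ones, with a median of -0.03 beside 0.04. Dusp1, a phosphatase acting on MAP kinases, had log2 levels of 10.69 and 10.58 on the control arrays, 10.09 and 10.33 on the low dose arrays, and 10.27 and 10.15 on the high dose arrays. Its log2 fold changes were -0.42 at the high dose (SE 0.11, limma adjusted p = 0.668) and -0.42 at the low dose (SE 0.11, adjusted p = 0.792); neuronal activity induces the gene as well. Gadd45a, a stress-inducible growth arrest gene, had -0.30 and -0.11. Cdkn1c, a cyclin-dependent kinase inhibitor related to Cdkn1a, had 0.25 and 0.05, where high dose replicate 2 alone stood 0.49 above the control mean and replicate 1 stood 0.0041 above it, and Cebpd, a transcription factor, 0.21 and 0.26.

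Klf9, a zinc finger factor induced by glucocorticoids, passed by date and not by dose. Its log2 levels were 13.43 on the later and 12.72 on the first high dose array. They were 13.41 on the later and 13.13 on the first control array, and 12.80 and 12.94 on the low dose arrays. The gap between dates was wider in the high dose than in the control group. In the date fit all genes shared 1 estimate of spread, so the p-value does not measure the spread of Klf9 itself. The later arrays were the highest of the 6, with a date difference of 0.50 (SE 0.09, limma adjusted p = 1.09e-05), while the log2 fold change was -0.20 at the high dose (SE 0.15, limma adjusted p = 1.00) and -0.40 at the low dose (SE 0.15, adjusted p = 1.00), where no array was hybridized later. Cdkn1c was the other gene of this list to rise by date (0.30, SE 0.09, limma adjusted p = 0.0214), and Stip1 the gene of the chaperone list to fall (-0.31, SE 0.09, limma adjusted p = 0.0181). The date differences of Sgk1 and Tsc22d3, -0.23 and -0.21, were of the opposite sign to those of Klf9 and Cdkn1c and did not pass.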

How the data were processed

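RNA pools from mouse hippocampus were measured on 6 arrays. The authors deposited log2 expression values for 45101 probe sets; per the submitters' processing notes they were made with RMA in R 3.0.1, with no settings or genome build stated in the labels. Values of 6.1 to 15.31 fit a log2 scale; array medians were 7.79 to 7.80. No arrays held identical values. The number of arrays limits precision. Symbols came from the platform annotation, updated by Entrez identifier through RefSeq where possible. Genes above the array median on at least 2 arrays were tested with limma 3.58.1 in R 4.3.3 (lmFit, eBayes, two-sided, Benjamini-Hochberg over 11739 genes) on all 6 arrays, with dose group as the model, plus date or side for those comparisons. Replicate 2 minus replicate 1 correlated at 0.540 between high dose and control, 0.133 between high and low dose and 0.0768 between low dose and control. Per the labels, number 1 marks the first and number 2 the later date in the high dose and control groups, so the number pairs those groups by date. Both low dose arrays are of the first date, so their number does not. In the date and side fits, and with date or replicate number as a block, the prior was infinite, so all genes shared 1 estimate of spread. It was also infinite in the dose fits without a single control or high dose array. With the trended robust prior it was infinite too, and the shared spread followed the level. The fits were tested on simulated arrays. The 10 genes and all lists were chosen with earlier results of these data known. All 10 were named; from the other lists, genes past the threshold and up to 4 with the largest change per dose comparison. Alternatives covered the filter, probe set choice, quantile normalization, prior, blocks and leaving out each array.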

Additional observations from a re-analysis of the deposited data

How the results depend on the processing

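For 35 of the 60 log2 fold changes of the 10 genes, those discussed singly, 443 values were recomputed under the alternatives; 409 kept direction and side of the threshold, 29 reversed and 5, all of Cdkn1a, came to pass; the cause was not tested. The count of members past the threshold was 0 in each comparison. With the date as a block it was 1 (Cdkn1a) for high dose and for both doses against control, where 44 and 51 of all tested genes passed. With a trended robust prior it was 1 (Cdkn1a) in the same comparisons, where 14 of all tested genes passed in each. The remaining 1 of these 5 values came from high dose against control without control replicate 2. That fit has 1 control array and so no spread among controls, and its p-value is not read. Its log2 fold change for Cdkn1a was -0.47, beside a median of -0.09 over all tested genes. With the replicate block the count of members stayed 0 in the 4 dose comparisons. All-gene calls with that block were 10, 32, 10 and 45 for high dose, low dose and both doses against control and high against low dose (1, 5, 5 and 0 without it). With the date as a block Nr3c1, Sgk1 and Tsc22d3 reversed at the low dose (-0.015, -0.021 and -0.039), and between doses Zbtb16 (-0.023), Sgk1 (0.050), Nr3c2 (0.034) and Hsd11b1 (0.0090), the last 3 not among the 35. With the mean of probe sets, Fkbp5 at the high dose (0.054), Nr3c1 at the low dose (-0.051), Zbtb16 between doses (-0.039), and Crhr1 (0.015) and Errfi1 (-0.077) by date reversed. Without single arrays the ranges crossed 0 at the high dose for Nr3c1 (-0.13 to 0.0058), Sgk1 (-0.15 to 0.21), Tsc22d3 (-0.28 to 0.042) and Zbtb16 (-0.33 to 0.027). At the low dose they did for Nr3c1 (-0.019 to 0.12), Sgk1 (-0.084 to 0.27) and Tsc22d3 (-0.094 to 0.23). Zbtb16 ran from -0.13 to 0.23 between doses, and Crhr1 from -0.015 to 0.13 by side. By date Nr3c2 ran from -0.21 to 0.039, Fkbp5 from -0.064 to 0.086, Errfi1 from -0.057 to 0.13 and Zbtb16 from -0.059 to 0.36. All-gene calls ran from 0 to 178 for high dose, 0 to 546 for low dose and 0 to 178 for both doses against control, 0 to 151 between doses, 152 to 1440 by date (818 as reported) and 0 to 3 by side. By date, the 2 calls among further glucocorticoid-induced genes became 0 without either high dose array and ran up to 5 with quantile normalization, and the 1 chaperone call became 0 without any single high dose or control array and with side as a term.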

Other observations

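As a description, the tested genes whose levels ran most like those of 4 members over the 6 arrays were sought by Pearson correlation among 11739 genes; arrays share dates and pools, and so many genes are compared over 6 arrays that high values are common. Nr3c1 ran most like Nxt2 (0.997), Gucy1b1 (0.996) and Ncoa4 (0.996), which were lower on the later arrays. Nr3c2 ran most like Ercc1 (0.9985), A2m (0.9952) and Nos3 (0.991), which were lowest on control replicate 2. Cdkn1a ran most like Ptgfrn (0.984), Reln (0.983) and Galnt13 (0.982); Reln, the gene of the secreted protein reelin, read 11.43 and 11.34 on the control arrays, 11.14 and 11.26 on the low dose arrays, and 11.19 and 11.16 on the high dose arrays. Crhr1 ran most like Tbc1d31 (0.993), Gabrd (0.986) and Kiss1r (0.979), which were lowest on high dose replicate 2. Among the 10 genes themselves, the closest pair was Nr3c1 and Tsc22d3 (0.935) and the most opposed was Hsd11b1 and Zbtb16 (-0.78).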
